A study of Homo sapiens with 12 samples.

Results

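XY018 and GSK805 are small-molecule antagonists of the nuclear receptor RORγ, and the responses of MDA-MB468 cells to each of them were set side by side gene by gene. MDA-MB468 is an established triple-negative breast cancer (TNBC) cell line, which lacks estrogen receptor, progesterone receptor and HER2 amplification. A gene was taken when the same symbol stood in both deposited tables and it reached 1 FPKM in at least 1 library of each pair, which left 11304 of the 17574 shared symbols. FPKM divides the fragments of a gene by the length of its transcript and by the mapped fragments in all. The response to XY018 was the log2 ratio of the library at 2.5 µM XY018 to its vehicle library, with 0.1 FPKM added to both, and the response to GSK805 was formed in the same way at 2.5 µM from the vehicle library of its own experiment. The difference was the XY018 log2 ratio minus the GSK805 log2 ratio, so that a positive value means a higher ratio with XY018. A gene was called lower or higher when it moved by at least 1.5-fold.

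RORγ binds DNA as a monomer at an AGGTCA core and activates transcription when an agonist ligand is bound. Sterol intermediates are among its known ligands, and its best-known role is in T helper 17 cells and in clock gene rhythms. Cholesterol synthesis genes are the classic targets of the sterol-sensing factors SREBP1 and SREBP2, which are held at the endoplasmic reticulum by INSIG proteins and carried to the Golgi by SCAP when membrane sterol is low. LXR, a second sterol-sensing nuclear receptor, turns on cholesterol export genes.

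All 4 libraries came from MDA-MB468 cells, which the labels give as grown in RPMI with serum and insulin and the study's methods as grown in DMEM with serum. The cells were plated and treated from the next day for 24 h. The XY018 cells and their vehicle belong to an experiment that also held XY018 at 1.25 µM, atorvastatin at 1.25 µM and both together, and the GSK805 cells and their vehicle belong to a separate one. There was 1 library per condition, so no difference below has a replicate check and no test was run. Because each antagonist has its own experiment, vehicle and table, a difference between the compounds and a difference between the experiments cannot be told apart. In bulk RNA, fewer cells of a type and less RNA per cell cannot be told apart either.

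The depth estimated from the spacing of low FPKM values was 19820000 and 18140000 fragments for the XY018 vehicle and XY018 libraries, and 8360000 and 8660000 for the GSK805 vehicle and GSK805 libraries. The 10 highest genes took 6.72% and 10.6% of the summed FPKM in the XY018 pair, and 46.4% and 50.03% in the GSK805 pair, whose table uses a wider annotation. The vehicle libraries, which hold the same untreated line, ranked the genes alike (Spearman rho 0.896 across genes), yet 5943 genes (52.6%) differed between them by at least 1.5-fold with no rescaling. The median vehicle difference, XY018 vehicle over GSK805 vehicle, was -0.53 on the log2 scale. EGFR, which MDA-MB468 amplifies, stood at 944 and 638 FPKM in the XY018 vehicle and XY018 libraries and at 617 and 741 FPKM in the GSK805 pair. Summed with KRT5, KRT16, KRT17 and EPCAM, also taken as high in this line, the level was 1295 and 850 FPKM, then 1392 and 1302.5 FPKM. SMAD4 and RB1, taken as deleted in this line, stood at 0.05 and 0.20 FPKM in the XY018 vehicle and at 0.172 and 3.42 FPKM in the GSK805 vehicle. Their sum was 0.25 and 0.41 FPKM in the XY018 pair and 3.59 and 4.76 FPKM in the GSK805 pair, so they were not silent there. Both reached 1 FPKM in at least 1 library. RB1 overlaps 10 annotated genes, 2 of them on its strand, and the source of its reads was not tested. PGR, the progesterone receptor gene, was at 0 throughout, and ESR1, the estrogen receptor gene, stood at 0.48 and 0.43 FPKM, then 1.77 and 5.67 FPKM. Together with GATA3 and FOXA1, further markers of luminal breast cells, they summed to 45.1 and 48.6 FPKM, then 69.0 and 105.7 FPKM. Of these 4 luminal markers 3 reached 1 FPKM in at least 1 library. Of 5 leukocyte markers CD3E was at 0 throughout and 3 reached 1 FPKM in at least 1 library. Their summed level went from 6.67 to 19.4 FPKM with XY018 and from 5.54 to 12.5 FPKM with GSK805. Only CD68, a lysosomal protein, passed the filter in both pairs, with log2 ratios of 1.86 and 1.15. Of 5 fibroblast markers only COL1A1 reached 1 FPKM (4.96 and 8.21 FPKM, then 10.4 and 17.2 FPKM). The part of these markers in the responses was not tested.

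Genes called in the same direction with both antagonists outnumbered those called in opposite directions. XY018 lowered 1640 genes (14.5%) and raised 1521 (13.5%), and GSK805 lowered 1325 (11.7%) and raised 1337 (11.8%). Both lowered 566 genes (5.01%) and both raised 461 (4.08%), which makes 1027 (9.09%) that moved the same way. Opposite calls were made for 165 genes (1.46%), of which 85 (0.752%) were lower with XY018 and higher with GSK805, and 80 (0.708%) the reverse. A further 1969 genes (17.4%) passed 1.5-fold with XY018 alone and 1470 (13%) with GSK805 alone, while 6673 (59%) stayed within 1.5-fold with both. Across genes, which are not independent replicates, Pearson's r of the log2 ratios was 0.383 and Spearman's rho was 0.398. At 5 FPKM or above, r was 0.437 over 8522 genes.

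**Figure D1:**
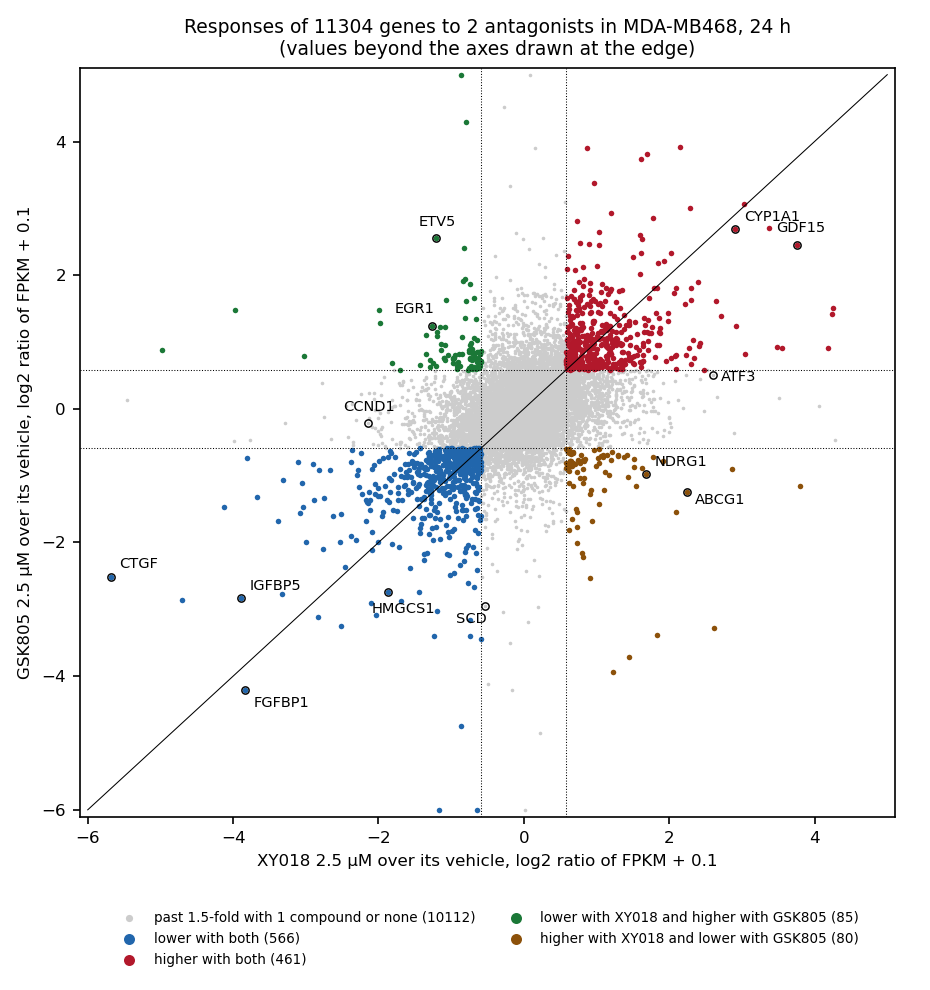
Log2 ratio of treated to vehicle FPKM + 0.1 for XY018 at 2.5 µM (horizontal) against GSK805 at 2.5 µM (vertical), 1 point per gene, with dotted lines at 1.5-fold and the diagonal of equal response. The 566 genes lower with both and the 461 higher with both outnumber the 85 and 80 in the opposite corners, and the few points beyond the axes are drawn at the edge.

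Measured as the difference itself, 3339 genes (29.5%) parted by at least 1.5-fold: 1646 (14.6%) had the higher ratio with XY018 and 1693 (15%) the higher ratio with GSK805. Few parted far. The difference reached 2-fold for 613 and 666 genes, 4-fold for 91 and 82, and 8-fold for 25 and 21. The SD of the difference over all genes was 0.709, against 0.650 for the XY018 response and 0.627 for the GSK805 response. From the estimated fragments, the 95% counting interval of the difference left out 0 for 6946 of 11290 genes with a known length. Such intervals cover counting error only, and 3158 genes both parted by 1.5-fold and had an interval without 0.

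The stronger a response was with one compound, the more often it was found with the other. Of the genes lowered at least 1.5-fold by XY018, 34.5% were also lowered by GSK805, and the shared genes made up 42.7% of those GSK805 lowered. On the higher side the shares were 30.3% and 34.5%. Of the 83 genes (0.734%) that XY018 lowered at least 4-fold, 53 (63.9%) were lower with GSK805 and 3 were higher. Of the 54 (0.478%) that XY018 raised at least 4-fold, 34 (63.0%) were higher with GSK805 and 5 were lower. Starting from GSK805, 69 genes (0.61%) were lowered 4-fold and 48 (0.425%) were raised 4-fold. Of these, 43 (62.3%) and 30 (62.5%) moved the same way with XY018, and 8 and 4 were called the opposite way. At 1.5-fold, 5.18% and 5.26% of the genes lowered and raised by XY018 were called the opposite way with GSK805. Starting from GSK805 these shares were 6.04% and 6.36%. The share called the opposite way was also larger at 4-fold than at 1.5-fold, except for genes lowered by XY018. At 4-fold it rests on few genes.

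**Figure D2:**
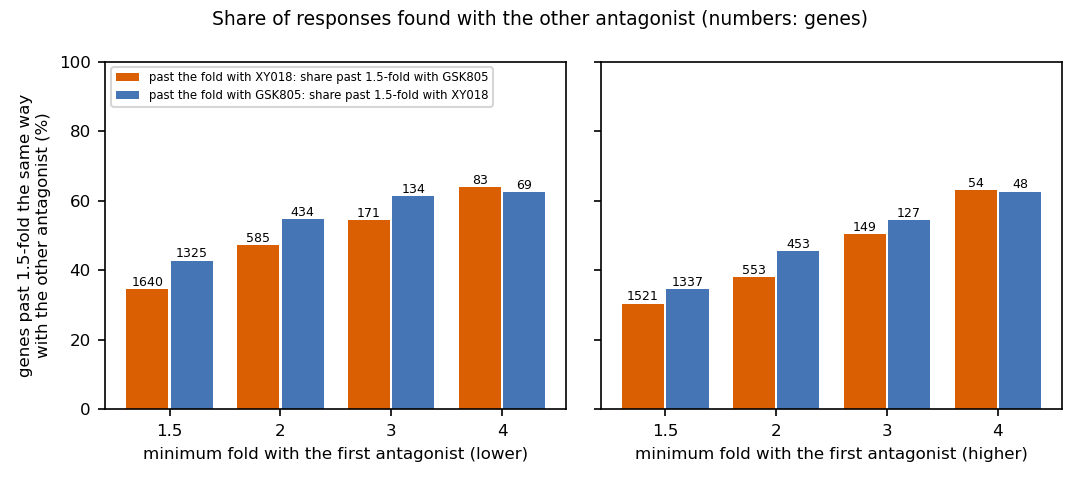
Percent of genes past a minimum fold with one antagonist (horizontal axis, 1.5 to 4-fold) that also passed 1.5-fold in the same direction with the other, for lowered genes on the left and raised genes on the right; the number over each bar is the count of genes it rests on. The share rises from 34.5% to 63.9% for genes lowered by XY018 and from 30.3% to 63.0% for genes raised by it.

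Low values shape part of these counts. In all, 10731 members (94.9%) reached 1 FPKM in all 4 libraries. A gene that passed the filter through only 1 library of a pair had to differ within that pair, and this held for 230 genes through the vehicle and 220 through the treated library of the XY018 pair, and for 117 and 154 of the GSK805 pair. NDUFA4L2, just inside the filter, stood at 1.00 and 0.72 FPKM in the XY018 vehicle and XY018 libraries and at 3.198 and 4.73 FPKM in the GSK805 pair. FBXO43, just outside, stood at 1.17 and 1.12 FPKM, then 0.908 and 0.996 FPKM. At 5 FPKM in the higher library of each pair, 397 of the genes lower with both, 240 of those higher with both, and 27 and 39 of the opposite groups were left.

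Of the 39 lists with genes compared, cholesterol synthesis had the largest share of genes called the same way with both antagonists, and the size of the fall differed. All 21 genes of the pathway were compared. XY018 lowered 17 of them and GSK805 lowered 19, the same 17 among them, against 5.01% of all genes lowered by both. The median response of the list was -0.83 with XY018 and -1.50 with GSK805, against -0.00 and -0.01 over all genes. The median of the gene-wise differences was 0.80 on the log2 scale. For 18 of the 21 genes the counting interval of the difference lay above 0, a deeper fall with GSK805, and for 1 gene it lay below 0.

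At the entry of the pathway, HMGCS1 (HMG-CoA synthase, chr5:43287572-43313614 on the minus strand of GRCh37) stood at 57.1 FPKM in the XY018 vehicle and 15.6 FPKM with XY018, and at 138 FPKM in the GSK805 vehicle and 20.5 FPKM with GSK805. Its log2 ratios were -1.87 and -2.75. ACAT2, which joins acetyl-CoA units, went from 59.7 to 21.8 FPKM and from 84.8 to 12.6 FPKM.

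The mevalonate steps showed the widest gap. IDI1, the isomerase of the isoprenoid units, fell from 37.2 to 21.7 FPKM with XY018 and from 73.7 to 12.1 FPKM with GSK805, a difference of 1.83 (counting interval 1.62 to 2.05). MVK, mevalonate kinase, fell from 20.1 to 11.3 FPKM and from 28.4 to 5.75 FPKM, a difference of 1.46. MVD, the mevalonate decarboxylase, was one of the 2 genes called with GSK805 alone, at 144 and 123 FPKM in the XY018 pair and at 423 and 161 FPKM in the GSK805 pair. The other was TM7SF2, a sterol reductase, at 26.3 and 19.98 FPKM, then 48.8 and 17.2 FPKM. PMVK, the next kinase after MVK, and GGPS1, which leads off the pathway to geranylgeranyl diphosphate, passed 1.5-fold with neither compound (log2 ratios 0.06 and -0.21 for PMVK, -0.28 and -0.15 for GGPS1).

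In the sterol branch, SQLE, the squalene epoxidase and a rate-limiting step, fell from 76.5 to 36.7 FPKM with XY018 and from 67.3 to 14.8 FPKM with GSK805. DHCR7, which makes cholesterol from its last precursor, fell from 266 to 103 FPKM and from 528 to 117 FPKM. Of the genes both lowered, the responses were nearest for MSMO1, a sterol methyl oxidase (-1.07 and -1.26), and SC5D, a sterol desaturase (-0.82 and -1.03).

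**Figure D3:**
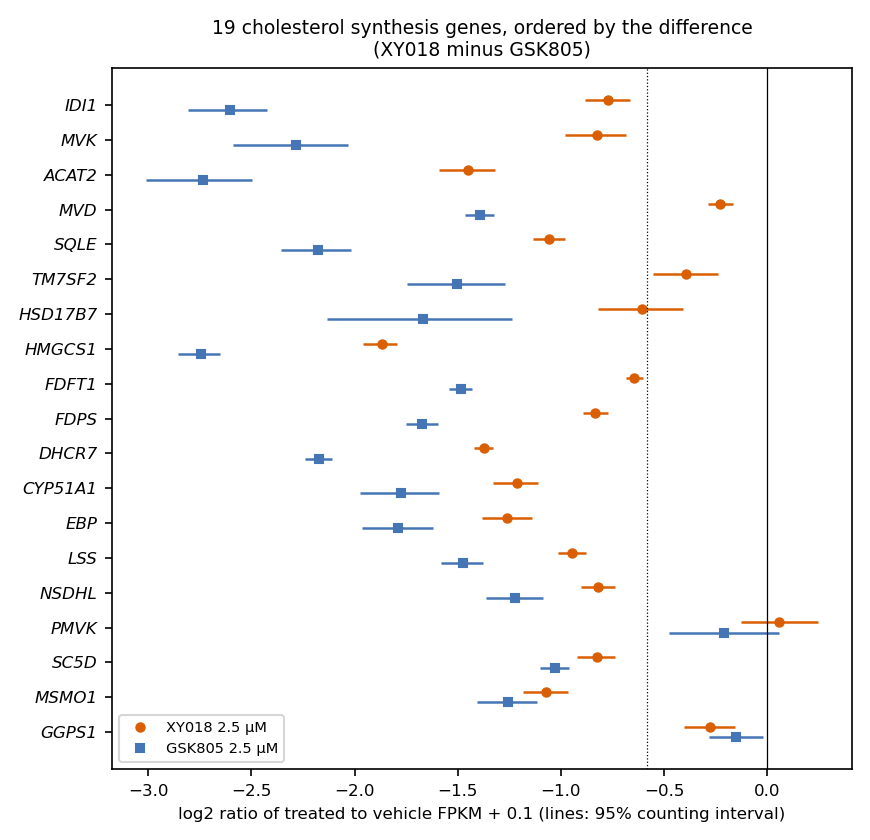
Log2 ratio of treated to vehicle FPKM + 0.1 for 19 of the 21 cholesterol synthesis genes, circles for XY018 and squares for GSK805, with lines for the 95% counting interval and a dotted line at 1.5-fold lower. The GSK805 square lies left of the XY018 circle for 18 of the genes drawn, and right of it for GGPS1. With 1 vehicle for both compounds, which cancels out of the difference, the median difference turns from 0.80 to -0.19. It stays positive at 0.34 and 0.41 once the median over all genes is set to 0.

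The list stayed lower with either vehicle, at a median of -1.60 for XY018 against the GSK805 vehicle and -1.04 for GSK805 against the XY018 vehicle, but the gap between the compounds depended on it. Over these 21 genes the XY018 vehicle stood lower than the GSK805 vehicle by a median of -0.75, against -0.53 for all genes. With both antagonists set against 1 vehicle, that vehicle cancels out of the difference. Either choice then gives the same value, the ratio of the XY018 library to the GSK805 library across separately normalized experiments. On that scale the median difference of the list turned from 0.80 to -0.19, and the difference of HMGCS1, MVD, FDPS, FDFT1 and DHCR7 took the opposite sign. The exchange also moved the median over all genes, to 0.53 for GSK805 or -0.62 for XY018. Once that median was set to 0, the list difference was 0.34 and 0.41, and these 5 genes kept the sign they had with their own vehicles.

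The factors that control the pathway parted mainly at SREBF1. SREBF1, the gene of SREBP1, stood at 41.4 FPKM in the XY018 vehicle and 40.5 FPKM with XY018, and went from 188 to 45.5 FPKM with GSK805, a difference of 2.01 (interval 1.91 to 2.11). Only its GSK805 vehicle stood apart from the other 3 libraries, and against a single vehicle its difference was -0.17, or 0.36 and 0.43 with the median over all genes set to 0. SREBF2, the gene of SREBP2, passed 1.5-fold with neither compound, at 123 and 109.9 FPKM and at 103 and 77.3 FPKM. INSIG1, which retains SCAP, fell with both, from 30.1 to 15.4 FPKM and from 58.6 to 10.6 FPKM. INSIG2 stood at 5.02 and 8.16 FPKM, then 17.1 and 13.2 FPKM, higher with XY018 alone. SCAP and the protease gene MBTPS1 had log2 ratios between 0.02 and 0.18 with both compounds.

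The SREBF2 promoter holds the letters of an SREBP site and is shown for that reason, for a gene that passed 1.5-fold with neither compound. The 250 bases before its start are at chr22:41832855-41833104 of GRCh38.p14, plus strand (RefSeq). Capitals mark the match to TCACNCCAC, bases 133 to 125 before the start.
SREBF2: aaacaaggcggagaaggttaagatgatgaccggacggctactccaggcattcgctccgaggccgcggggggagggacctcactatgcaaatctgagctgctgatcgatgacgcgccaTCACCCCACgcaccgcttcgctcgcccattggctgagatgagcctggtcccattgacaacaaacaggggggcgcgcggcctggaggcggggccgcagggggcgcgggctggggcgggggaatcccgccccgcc
Shares of promoters, here and below, were counted over a longer window, the 250 bases before the start and the 50 after it. These letters, on either strand, stood in 1.15% of all 27305 promoters, in 1.11% of the 8892 members with one, and in 0 of the 16 cholesterol synthesis promoters that were matched. That says only that these exact letters are not in these windows.

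Sterol uptake and transport genes followed in part. Of 16 genes, both compounds lowered 4, XY018 lowered 5 and GSK805 lowered 6, against 5.01%, 14.5% and 11.7% of all genes. XY018 raised 1. Among the shared genes were LRP8, a lipoprotein receptor (log2 ratios -1.03 and -1.92), and TMEM97, which binds the cholesterol carrier NPC1 (-1.27 and -1.20). STARD4, a cytosolic sterol carrier, parted, with 5.85 and 5.42 FPKM in the XY018 pair and 12.3 and 4.95 FPKM in the GSK805 pair.

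Of the LXR list, ABCG1 moved in opposite directions. ABCG1, a cholesterol exporter at chr21:43619799-43717354 on the plus strand of GRCh37, rose from 1.14 to 5.77 FPKM with XY018 and fell from 2.16 to 0.857 FPKM with GSK805, a difference of 3.48 (interval 2.66 to 4.30). It was the only such gene among the 8 of the list that were compared, against 1.46% of all genes. ABCA1, the other main exporter, stayed below the filter in the GSK805 pair, at 0.24 and 1.31 FPKM with XY018 and 0.139 and 0.379 FPKM with GSK805. MYLIP, a ubiquitin ligase, stood at 9.50 and 9.95 FPKM and fell from 13.2 to 6.598 FPKM with GSK805.

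Fatty acid synthesis was lowered by both for 5 of 18 genes, with 11 lowered by GSK805 and 5 by XY018. The shares over all genes were 5.01%, 11.7% and 14.5%. XY018 raised 1 gene of the list, against 13.5% of all genes, and GSK805 lowered that gene. Opposite calls of that kind were made for 0.708% of all genes. ACLY, which supplies cytosolic acetyl-CoA, gave nearly the same response, from 97.7 to 40.0 FPKM with XY018 and from 208 to 86.7 FPKM with GSK805, a difference of -0.02 (interval -0.11 to 0.06). FASN, the fatty acid synthase, fell from 449 to 244 FPKM and from 1055 to 209 FPKM, a difference of 1.46. SCD, the stearoyl-CoA desaturase, showed the largest gap of the list. It stood at 238 and 164 FPKM in the XY018 pair, short of 1.5-fold, and fell from 259 to 33.4 FPKM with GSK805, a difference of 2.41 (interval 2.33 to 2.50). The SCD vehicles were close to each other, at 238 and 259 FPKM.

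The nuclear receptor genes RORA and RORB stayed at or below 0.184 FPKM in every library. Of the 16 receptor and clock genes compared, XY018 raised 7 and lowered 1, against 13.5% and 14.5% of all genes. GSK805 raised 5 and lowered 1, against 11.8% and 11.7%, and both raised 4, against 4.08%. NR1D1, the clock repressor REV-ERBα that binds the same DNA sites as the ROR proteins, rose from 6.94 to 18.5 FPKM and from 7.30 to 17.5 FPKM, a difference of 0.15 (interval -0.18 to 0.48). NFIL3, another clock output repressor, rose alike with both, at log2 ratios of 1.01 and 0.89.

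Of the clock repressors, PER1 and CRY2 parted. PER1 rose from 5.74 to 26.7 FPKM with XY018 and stood at 14.99 and 15.1 FPKM in the GSK805 pair, a difference of 2.18 (interval 1.97 to 2.40). CRY2 rose from 3.56 to 9.43 FPKM with XY018 and stood at 10.8 and 9.44 FPKM in the GSK805 pair. In both genes the GSK805 vehicle was above the XY018 vehicle. PER2, PER3 and CRY1 passed 1.5-fold with neither, at log2 ratios of -0.38 and 0.04 for PER2, -0.56 and -0.33 for PER3, and 0.09 and -0.23 for CRY1.

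PER1 was the clock gene with the widest gap and its promoter holds a ROR core, so it is shown. The window is chr17:8152405-8152654 of GRCh38.p14, minus strand (RefSeq). Capitals mark AGGTCA read on the opposite strand, bases 144 to 139 before the start.
PER1: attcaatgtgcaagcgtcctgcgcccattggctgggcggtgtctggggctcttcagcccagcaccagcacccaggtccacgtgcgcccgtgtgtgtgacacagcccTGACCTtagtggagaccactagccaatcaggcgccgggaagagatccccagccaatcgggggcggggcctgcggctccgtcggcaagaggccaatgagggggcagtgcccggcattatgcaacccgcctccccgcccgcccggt
The core, on either strand, stood in 13.9% of all promoters and in 9.59% of those of the genes compared. It stood in 8.98% of promoters of genes lower with both, in 10.6% of those higher with both, and in 6 of 55 (10.9%) of each opposite group. With AANT directly before AGGTCA, as ROR proteins prefer, it stood in 0.15% of all promoters and in no promoter of these 4 groups.

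Among the genes that fell most with both compounds were secreted and matrix proteins. FGFBP1, a carrier that releases fibroblast growth factors (chr4:15937200-15940363, minus strand of GRCh37), fell from 39.2 to 2.65 FPKM with XY018 and from 83.2 to 4.41 FPKM with GSK805. No gene of either direction had a larger response in the weaker of its 2 compounds (log2 ratios -3.84 and -4.21). IGFBP5, which binds insulin-like growth factors, fell from 207 to 13.9 FPKM and from 51.1 to 7.10 FPKM. EFEMP1, a fibulin of the extracellular matrix, fell from 11.3 to 1.04 FPKM and from 17.5 to 2.48 FPKM. TNC, the matrix glycoprotein tenascin C, fell from 5.76 to 1.27 FPKM and from 11.5 to 1.46 FPKM.

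CTGF, a matricellular target of the YAP and TAZ coactivators (chr6:132269316-132272512, minus strand of GRCh37), fell with both but by unlike amounts. It went from 59.4 to 1.06 FPKM with XY018 and from 17.5 to 2.99 FPKM with GSK805, log2 ratios of -5.68 and -2.51. FGD3, an activator of the GTPase CDC42, fell from 8.81 to 2.07 FPKM and from 16.01 to 1.80 FPKM. CNIH2, a partner of glutamate receptors, fell from 16.2 to 2.72 FPKM and from 10.9 to 2.64 FPKM, a difference of -0.54 whose interval (-1.25 to 0.17) held 0. Over all 566 genes lower with both, the median responses were -0.98 with XY018 and -0.91 with GSK805 and the median difference was -0.06.

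Among the genes that rose most with both were CYP1A1 and stress-response genes. CYP1A1, the xenobiotic-metabolizing target of the aryl hydrocarbon receptor (chr15:75011883-75017877, minus strand of GRCh37), rose from 7.11 to 54.1 FPKM with XY018 and from 3.08 to 20.3 FPKM with GSK805. The difference was 0.23 (interval -0.19 to 0.64). GDF15, a stress cytokine, rose from 25.5 to 346 FPKM and from 9.77 to 54.1 FPKM, a difference of 1.30 (interval 0.94 to 1.66). DDIT3, the stress-induced transcription factor CHOP, rose from 17.5 to 86.7 FPKM and from 13.1 to 40.7 FPKM. SERPINE2, a protease inhibitor, rose from 2.28 to 8.99 FPKM and from 2.07 to 9.98 FPKM, nearly the same change.

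Of the remaining named genes of this group, RAP1GAP and DEFB1 gave near-equal responses and ACAD11 did not. GSDMB, of the gasdermin family of pore-forming proteins, had log2 ratios of 1.85 and 2.18. RAP1GAP, which switches off the GTPase RAP1, had 1.83 and 1.81. DEFB1, a constitutive epithelial defensin, rose from 19.4 to 64.2 FPKM with XY018 and from 48.4 to 154 FPKM with GSK805. ACAD11, an acyl-CoA dehydrogenase, rose more with GSK805, from 1.33 to 8.26 FPKM, than with XY018, from 2.05 to 6.55 FPKM. Over the 461 genes higher with both, the median responses were 0.95 and 0.95. These genes were expressed at a lower level than those that fell, with a median of 3.03 FPKM in the XY018 vehicle against 14.2 FPKM for the genes lower with both and 11.5 FPKM for all genes.

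**Figure D4:**
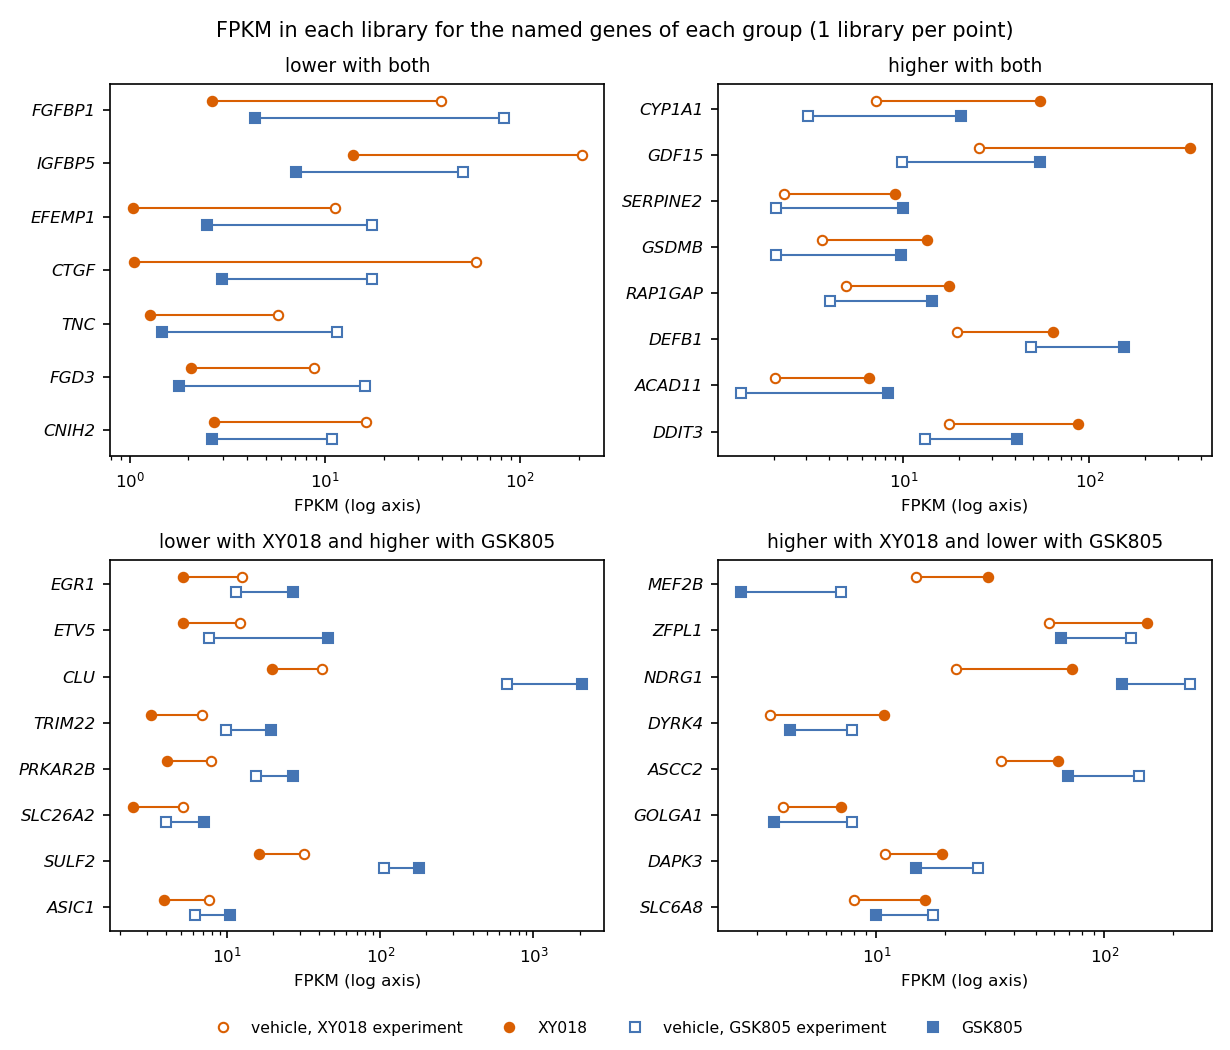
FPKM (log axis) in the vehicle (open) and treated (filled) library of each experiment for 7 genes lower with both and 8 genes in each of the other 3 groups, circles for the XY018 experiment and squares for the GSK805 experiment, 1 library per point. In the upper panels both lines of a gene run the same way, as for FGFBP1 from 39.2 to 2.65 and from 83.2 to 4.41, and in the lower panels they run opposite ways, as for ETV5 from 12.1 to 5.14 and from 7.66 to 45.4.

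The genes that fell with XY018 and rose with GSK805 included early-response transcription factors. EGR1, a zinc-finger factor induced within minutes of growth-factor signals (chr5:137801168-137804992, plus strand of GRCh37), fell from 12.5 to 5.17 FPKM with XY018 and rose from 11.3 to 27.0 FPKM with GSK805. Its vehicles were close, and the difference was -2.50 (interval -2.78 to -2.22). ETV5, an ETS factor downstream of ERK signalling (chr3:185764103-185828107, minus strand of GRCh37), fell from 12.1 to 5.14 FPKM and rose from 7.66 to 45.4 FPKM, a difference of -3.77 (interval -4.02 to -3.51). MYC, chosen after its values were seen, went from 67.4 to 41.9 FPKM with XY018 and from 90.8 to 162 FPKM with GSK805.

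The whole MAPK feedback and early-response list leaned the same way without being uniform. Of 25 genes, XY018 lowered 11 and raised 6, against 14.5% and 13.5% of all genes. GSK805 lowered 2 and raised 6, against 11.7% and 11.8%, and 3 were called in opposite directions, against 1.46%. The medians were -0.50 with XY018 and 0.16 with GSK805, with a median difference of -0.53, and the vehicles of these genes differed by a median of 0.01. DUSP6, the ERK phosphatase, and SPRY4, a Sprouty inhibitor of receptor signalling, both chosen after their values were seen, fell with XY018 (log2 ratios -1.56 and -0.998) and stayed within 1.5-fold with GSK805 (-0.23 and -0.16). The AP-1 subunit genes JUN and JUND, chosen likewise, parted the other way: JUN rose from 14.6 to 42.2 FPKM with XY018 and stood at 17.7 and 18.2 FPKM in the GSK805 pair, and JUND rose from 65.7 to 199 FPKM and stood at 91.0 and 74.5 FPKM. FOSL2, another AP-1 subunit gene, rose with both, at log2 ratios of 0.90 and 0.85. The AP-1 site TGANTCA stood in 6 of 55 promoters (10.9%) of the genes lower with XY018 and higher with GSK805, in 5 of 55 (9.09%) of the reverse group, in 4.30% of the genes compared and in 7.76% of all promoters.

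Other genes of this group are of mixed function. CLU, the secreted chaperone clusterin, fell from 41.6 to 19.7 FPKM with XY018 and rose from 667 to 2068 FPKM with GSK805, from vehicle levels that were far apart. TRIM22, an interferon-induced antiviral protein, went from 6.87 to 3.19 FPKM and from 9.85 to 19.3 FPKM. SULF2, an extracellular sulfatase of heparan sulfate, went from 31.7 to 16.2 FPKM and from 105 to 179 FPKM. PRKAR2B, a regulatory subunit of protein kinase A, SLC26A2, a sulfate transporter, and ASIC1, an acid-sensing channel, had differences of -1.75, -1.85 and -1.71. Over the 85 genes the median responses were -0.84 and 0.82.

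The reverse group, higher with XY018 and lower with GSK805, was of mixed function. NDRG1, a hypoxia-induced stress protein, rose from 22.3 to 71.8 FPKM with XY018 and fell from 236 to 119 FPKM with GSK805. MEF2B, a MADS-box factor, rose from 14.95 to 30.8 FPKM and fell from 6.96 to 2.54 FPKM. ZFPL1, a Golgi zinc-finger protein, rose from 57.0 to 154 FPKM and fell from 131 to 64.7 FPKM. DAPK3, a death-associated kinase, went from 10.9 to 19.4 FPKM and from 28.0 to 14.9 FPKM. SLC6A8, the creatine transporter, went from 7.97 to 16.4 FPKM and from 17.7 to 9.99 FPKM.

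In this group the vehicles themselves lay apart. The genes were chosen on ratios that hold these vehicles. The choice itself tends to pick a low XY018 vehicle and a high GSK805 vehicle, and the reverse in the other opposite group. Its part in the gap below was not tested. The XY018 vehicle stood below the GSK805 vehicle by a median of -1.05 on the log2 scale over the 80 genes, against -0.53 for all genes and -0.22 for the 85 genes of the other opposite group. Against a single vehicle the difference of NDRG1 was -0.73 and that of ASCC2, of the ASCC complex of DNA repair, was -0.15, in place of 2.67 and 1.86. With the median over all genes set to 0 these were -0.21 and -0.13 for NDRG1, and 0.38 and 0.46 for ASCC2. For MEF2B the XY018 vehicle was the higher one, at 14.95 against 6.96 FPKM. Further members by list were GPNMB, a lysosomal glycoprotein (33.0 to 70.5 FPKM, then 54.3 to 33.7 FPKM), and PSMC4, a proteasome ATPase (65.0 to 149 FPKM, then 85.1 to 49.9 FPKM).

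Genes of the integrated stress response were raised by both in part. This pathway slows translation and raises ATF4 targets when amino acids run short or proteins misfold. Of 19 genes, XY018 raised 10, GSK805 raised 5 and both raised 4, against 13.5%, 11.8% and 4.08% of all genes, with list medians of 0.62 and 0.34. ATF4 itself, which is controlled in translation, stayed within 1.5-fold (725 and 644 FPKM, then 562 and 517 FPKM). ATF3, a stress-induced repressor, parted: it rose from 7.61 to 46.6 FPKM with XY018 and stood at 14.5 and 20.6 FPKM in the GSK805 pair, a difference of 2.09 (interval 1.78 to 2.41). PPP1R15A, which restores translation by dephosphorylating eIF2α and was chosen after its values were seen, rose from 18.0 to 104 FPKM with XY018 and stood at 14.5 and 21.7 FPKM with GSK805, just short of 1.5-fold.

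A window before the listed start of ATF3 is shown because ATF3 had the widest gap of this list. It was also chosen for the composite site it holds, which ATF4 and CEBP proteins bind. Only the promoter entry kept for ATF3 was searched, and any other start of the gene was left out. Which start these cells used was not tested, here or for SREBF2 and PER1. The window is chr1:212565157-212565406 of GRCh38.p14, plus strand (RefSeq). Capitals mark the match to TGATGNAA, bases 191 to 184 before the start.
ATF3: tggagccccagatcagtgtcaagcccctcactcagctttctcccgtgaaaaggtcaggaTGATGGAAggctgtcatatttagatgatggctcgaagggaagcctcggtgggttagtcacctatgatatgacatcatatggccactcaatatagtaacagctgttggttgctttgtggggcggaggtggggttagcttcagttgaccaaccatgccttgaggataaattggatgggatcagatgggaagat
The site, on either strand, stood in 3.67% of all promoters, in 1.55% of those of the genes compared and in 10 of 340 (2.94%) of those higher with both. The E-box CACGTG, the clock proteins' site, stood in 7.43% of all promoters, in 10.3% of those compared and in 10.9% of both same-direction groups.

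Of 20 endoplasmic reticulum chaperone genes XY018 raised 10, against 13.5% of all genes. GSK805 raised 3, near its share of 11.8% over all genes, and lowered 1, against 11.7%. The list medians were 0.59 and 0.05 with a median difference of 0.61. The counting interval of the difference lay above 0 for 17 genes. SDF2L1, a chaperone cofactor, rose from 30.3 to 78.8 FPKM with XY018 and stood at 58.5 and 45.8 FPKM in the GSK805 pair. HSPA5, the main chaperone BiP, chosen after its values were seen, rose from 106 to 329 FPKM with XY018 and stood at 84.3 and 103 FPKM in the GSK805 pair. DNAJB9, a BiP cochaperone, rose with both, from 4.88 to 8.79 FPKM and from 11.1 to 22.3 FPKM.

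Serine, one-carbon and amino acid genes, many of them ATF4 targets, leaned the other way from the stress genes. XY018 lowered 5 of 21 and raised 1, against 14.5% and 13.5% of all genes. GSK805 raised 5, against 11.8%, and lowered none, and none was called the same way with both. The medians were -0.36 and 0.09. The counting interval of the difference lay below 0 for 18 of 21. MTHFD1L, a mitochondrial folate enzyme, stood at 19.6 and 15.04 FPKM in the XY018 pair and rose from 14.5 to 25.7 FPKM with GSK805. SLC7A11, the cystine transporter, chosen after its values were seen, stood at 3.51 and 3.48 FPKM and rose from 1.80 to 4.37 FPKM with GSK805. ALDH1L2, of mitochondrial folate metabolism, rose with GSK805 only, from 10.7 to 18.9 FPKM, and stood at 18.9 and 26.4 FPKM in the XY018 pair. Vehicle levels of this list differed by a median of 0.02.

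Many replication genes fell with both. Of 33 genes XY018 lowered 22, GSK805 lowered 19 and both lowered 13, against 14.5%, 11.7% and 5.01% of all genes. The list medians were -0.79 and -0.71. MCM10, which helps load the polymerases, fell from 6.04 to 1.98 FPKM with XY018 and from 9.71 to 1.79 FPKM with GSK805. RRM2, the inducible subunit of ribonucleotide reductase, fell with both but by unlike amounts, from 40.0 to 6.24 FPKM and from 54.3 to 28.8 FPKM, a difference of -1.75. PRIM1, of the primase, and POLE2, of polymerase epsilon, were called in opposite directions and are named for that, after their values were seen. PRIM1 went from 16.7 to 10.4 FPKM with XY018 and from 16.4 to 34.3 FPKM with GSK805. POLE2 went from 4.41 to 1.80 FPKM and from 3.96 to 6.41 FPKM.

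Of 32 mitosis genes XY018 lowered 17, GSK805 lowered 8 and both lowered 5, against 14.5%, 11.7% and 5.01% of all genes, and the medians were -0.61 and -0.45. TOP2A, the topoisomerase of dividing cells, gave nearly the same response, from 45.4 to 24.4 FPKM and from 52.98 to 28.8 FPKM. CDK1, the mitotic kinase, fell from 32.4 to 16.6 FPKM with XY018 and stood at 72.6 and 73.0 FPKM in the GSK805 pair. Of the G1 genes, E2F1, the S-phase transcription factor, fell with both, from 27.2 to 10.8 FPKM and from 22.6 to 10.4 FPKM. CCND1, cyclin D1, fell from 73.3 to 16.5 FPKM with XY018 and stood at 167 and 144 FPKM in the GSK805 pair, a difference of -1.94 (interval -2.04 to -1.83). CDKN1A, the CDK inhibitor p21, rose from 11.4 to 24.3 FPKM with XY018 and stood at 28.2 and 19.7 FPKM in the GSK805 pair.

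ACTB, the cytoskeletal β-actin, fell from 3718 to 751 FPKM with XY018 and from 5485 to 1410.2 FPKM with GSK805. Of 19 genes of the actin and SRF list both lowered 6, XY018 lowered 9 and GSK805 lowered 6, against 5.01%, 14.5% and 11.7% of all genes. XY018 raised 2, against 13.5%, and the list medians were -0.56 and -0.49. FHL2, an actin-linked LIM protein, fell from 73.8 to 35.4 FPKM with XY018 and stood at 88.2 and 77.4 FPKM with GSK805. Of the 15 genes of the YAP and TAZ list both lowered 7, against 5.01% of all genes, with CTGF the widest gap. CYR61, a second matricellular target, chosen after its values were seen, fell from 51.4 to 13.0 FPKM and from 23.2 to 9.36 FPKM.

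Of 17 acute-phase and S100 genes XY018 lowered 12, GSK805 lowered 7 and both lowered 6, against 14.5%, 11.7% and 5.01% of all genes. XY018 raised 2, GSK805 raised 3 and both raised 2, against 13.5%, 11.8% and 4.08% of all genes. The medians were -1.31 and -0.55. S100A7, psoriasin, fell from 148 to 9.22 FPKM with XY018 and stood at 442 and 316 FPKM in the GSK805 pair, a difference of -3.51 (interval -3.89 to -3.12). PI3, the elastase inhibitor elafin, fell with both, from 444 to 52.4 FPKM and from 413 to 139.6 FPKM. Vehicle levels of this list differed by a median of -1.63, XY018 vehicle below GSK805 vehicle. The keratin KRT8 fell alike, from 918 to 468 FPKM and from 967 to 422 FPKM.

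NF-κB targets and chemokines had the largest positive median difference of the 39 lists with genes compared, 0.93, over 14 of 25 listed genes. XY018 raised 8 of them and lowered 2, against 13.5% and 14.5% of all genes. GSK805 raised none and lowered 4, against 11.8% and 11.7%. The medians were 0.71 and -0.08, and the vehicles differed by a median of -0.00. LCN2, the iron-binding lipocalin, rose from 520 to 875 FPKM with XY018 and fell from 274 to 162 FPKM with GSK805. NFKBIA, the inhibitor IκBα that NF-κB itself induces, chosen after its values were seen, rose from 33.7 to 76.7 FPKM with XY018 and stood at 37.95 and 34.8 FPKM in the GSK805 pair. CXCL1, a neutrophil chemokine, fell with both, from 29.7 to 15.1 FPKM and from 9.17 to 5.18 FPKM.

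**Figure D5:**
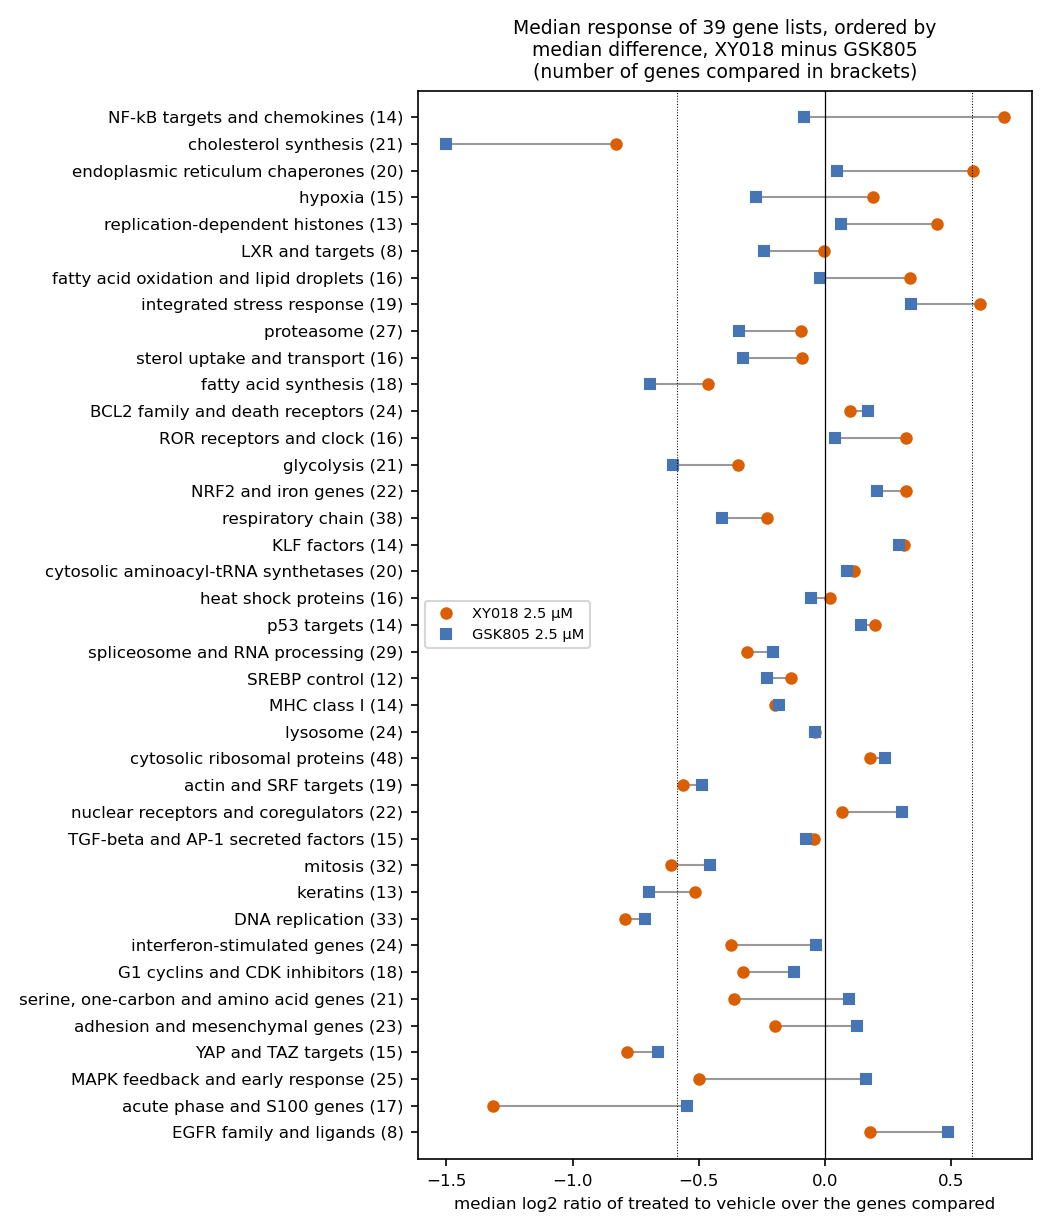
Median log2 ratio of treated to vehicle over the genes compared in each of 39 gene lists, circles for XY018 and squares for GSK805, ordered by the median of the gene-wise differences, with the number of genes in brackets and dotted lines at 1.5-fold. Cholesterol synthesis (-0.83 and -1.50), DNA replication (-0.79 and -0.71) and YAP and TAZ targets (-0.78 and -0.66) lie left of 0 with both compounds. NF-κB targets (0.71 and -0.08) and MAPK feedback genes (-0.50 and 0.16) lie on opposite sides. For cholesterol synthesis the order of the compounds turns when both are set against 1 vehicle, which cancels out of the difference (-0.19). It does not turn once the median over all genes is also set to 0 (0.34 and 0.41).

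Some genes passed 2-fold with one compound and stayed within 0.2 of 0 on the log2 scale with the other. XY018 lowered 585 genes at least 2-fold (5.18%) and raised 553 (4.89%), and 100 (17.1%) and 131 (23.7%) of them stayed near 0 with GSK805. GSK805 lowered 434 (3.84%) and raised 453 (4.01%), and 68 (15.7%) and 82 (18.1%) of them stayed near 0 with XY018. With XY018 alone, VSNL1, a neuronal calcium sensor, fell from 9.36 to 1.64 FPKM and stood at 17.1 and 17.6 FPKM in the GSK805 pair. ID4, a helix-loop-helix inhibitor, fell from 11.2 to 2.46 FPKM and stood at 6.44 and 5.84 FPKM. RASL11A, a RAS-like GTPase, fell from 9.17 to 2.12 FPKM and stood at 30.3 and 33.4 FPKM. Beside PER1, PPP2R5B, a regulatory subunit of phosphatase 2A, rose from 8.52 to 34.2 FPKM with XY018 and stood at 10.99 and 10.0 FPKM in the GSK805 pair. TUBA4A, an α-tubulin, rose from 3.54 to 15.8 FPKM and stood at 7.98 and 8.76 FPKM.

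Among the genes called with GSK805 alone, some had vehicles that lay apart. PDCD11, a ribosome biogenesis factor, went from 169 to 14.9 FPKM, with 13.7 and 12.0 FPKM in the XY018 pair, so that its GSK805 vehicle stood apart from the other 3 libraries. LRRC14, a leucine-rich repeat protein, showed the same shape, at 61.9 and 7.84 FPKM with 4.57 and 5.24 FPKM in the XY018 pair. TNRC18 stood at 53.6 and 54.3 FPKM in the XY018 pair and at 129.6 FPKM in the GSK805 vehicle and is listed at 0 with GSK805, so no fold is given. Since the strand of the counting is not stated, reads of overlapping genes cannot be told apart. PDCD11 and ADM have no overlapping gene in GENCODE, LRRC14 has 1 and TNRC18 has 4, none of them on the same strand. CHD9 has 5, of which 4 are on its strand. ADM, the vasodilator adrenomedullin, fell from 13.3 to 2.69 FPKM with GSK805 against 8.01 and 8.86 FPKM in the XY018 pair. CHD9, a chromatin remodeler, rose from 9.91 to 33.3 FPKM against 6.96 and 6.86 FPKM.

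XY018 was also given at 1.25 µM, against the same vehicle library, so these values are not independent of those at 2.5 µM. The median log2 ratio at 1.25 µM was -0.70 over the genes lower with both antagonists and 0.75 over those higher with both. It was -0.57 over the genes lower with XY018 and higher with GSK805, and 0.71 over the reverse group. At the lower dose 363 of 566, 325 of 461, 39 of 85 and 51 of 80 genes of the 4 groups passed 1.5-fold in either direction, against 1988 (17.6%) of all genes. Atorvastatin at 1.25 µM, set against that same vehicle, gave medians of -0.13, 0.12, -0.05 and 0.15 over the same groups.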

How the data were processed

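RNA was sequenced from MDA-MB468 cells in 4 libraries, XY018 at 2.5 µM, GSK805 at 2.5 µM and a vehicle for each. The authors used BWA and Bowtie against GRCh37/hg19, then Cufflinks for gene levels (versions are not given in the sources used here), and deposited FPKM in 2 tables of 18217 and 57909 rows, normalized separately. The headers name no unit, and FPKM rests on the methods and the values. Symbols spelled as dates (57) were dropped, and of 2165 repeated rows in the GSK805 table the entry with the highest sum was kept. Log2 ratios used 0.1 FPKM as pseudocount and 1 FPKM as filter. Fragments were estimated from FPKM, length and the spacing of low values (whole within 0.2 for 70.1% to 86.8% of the genes used), and this was tested on simulated data. They gave 95% Clopper-Pearson intervals per ratio, and a normal approximation on the log scale for the difference, for counting error only. Coordinates came from GENCODE 44 mapped to GRCh37, and promoters from RefSeq, with 1 of 35116 entries kept for each of 27305 symbols. Motif shares were counted over 250 bases before and 50 after the start, and the sequences shown hold only the 250.

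No test was run, since each condition has 1 library. The members and the gene lists were chosen with earlier results of these data known. Named were the 8 genes with the largest smaller response in each of 4 groups at 5 FPKM, the 4 genes per compound and direction past 2-fold with one compound and within 0.2 of 0 with the other, the cholesterol synthesis genes, 2 genes of each further list (largest difference and largest agreement), the markers, and single genes such as RORA, RORB, SREBF1, SREBF2, INSIG1, ABCA1 and ABCG1; some of these genes are not reported here. Members given beside these from the same lists were chosen after their values were seen. Alternatives changed the pseudocount, filter, scaling, vehicle, repeated symbols, synonyms and threshold. Lists on small RNA hosts had 0 genes compared. Libraries of HCC70 cells and of the combined treatment were not used here. Calculations ran in Python 3.11.15 with scipy 1.17.1, pandas 2.3.3 and numpy 2.4.6, and plots in matplotlib 3.10.9.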

Additional observations from a re-analysis of the deposited data

How the results depend on the processing

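No paired analysis was possible because each condition has 1 library and the labels carry no replicate number. The counts lower with both, higher with both, lower with XY018 and higher with GSK805, and the reverse were 566, 461, 85 and 80. With a pseudocount of 1 the last 3 were 297, 35 and 45. Without a filter they were 807, 217 and 212, the difference passed 1.5-fold upwards for 2939 genes and downwards for 2882, and r was 0.276. With a filter at 5 FPKM they were 240, 27 and 39, with 959 downward differences and r 0.437. At 2-fold the 4 counts were 157, 109, 11 and 11 and the differences 613 and 666. A pseudocount of 0.01, both rescalings, single-entry symbols and synonyms moved none of these counts by over 1.5 times, although equal summed FPKM moved the share of lower calls from 51.9% to 59.5% for XY018 and from 49.8% to 41.5% for GSK805.

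The vehicle mattered most. When both antagonists are set against 1 vehicle it cancels out of the difference, so both plain exchanges give the same difference for a gene. GSK805 against the XY018 vehicle moved its median over all genes to 0.53, and gave 1003 higher with both, 462 lower with XY018 and higher with GSK805, 5497 downward differences, r 0.282, a cholesterol median of -1.04 with GSK805 and a cholesterol difference of -0.19. XY018 against the GSK805 vehicle moved its median to -0.62, and gave 1209 lower with both, 453 and 40 in the opposite groups, 1050 and 5906 differences, a cholesterol median of -1.60 with XY018 and a difference of -0.19. Lower calls made up 17.3% and 84.1% of the calls of the exchanged compound. The same exchanges with the median set to 0 were chosen after seeing the data. They gave 211 and 199 opposite genes, 2816 and 3063 differences, r 0.282 and a cholesterol difference of 0.34 for GSK805, and 713 higher with both, 249 and 124 opposite genes, 3064 and 3119 differences, a cholesterol median of -0.98 with XY018 and a difference of 0.41 for XY018. The cause of these changes was not tested.

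Of 149 named genes, 16 changed the sign of the difference in both plain exchanges, among them IGFBP5 (0.96), TNC (-0.19), NDRG1 (-0.73), ASCC2 (-0.15), PDCD11 (-0.31), LRRC14 (-0.57), GTF2H4 (1.41), HMGCS1, MVD and FDPS (-0.39 each), FDFT1 (-0.11), DHCR7 (-0.19), SREBF1 (-0.17), BMF (-0.37) and NDUFB5 (-1.08). With the median set to 0 as well, 7 did in each. For GSK805 these were IGFBP5 (1.49), ACAD11 (0.20), NDRG1 (-0.21), LRRC14 (-0.043), GTF2H4 (1.94), NDUFB5 (-0.55) and EGFR (0.31). For XY018 they were IGFBP5 (1.56), ACAD11 (0.27), NDRG1 (-0.13), GTF2H4 (2.01), KLF11 (0.070), NDUFB5 (-0.48) and EGFR (0.39). None of the named genes changed sign under the other settings. Depth limits weak genes most, and the median half-width of the counting interval of a difference was 0.244.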

Other observations

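Of 22 antioxidant and iron genes XY018 raised 8, GSK805 raised 5 and both raised 5, against 13.5%, 11.8% and 4.08% of all genes. XY018 lowered 1 and GSK805 lowered 4, against 14.5% and 11.7% of all genes, with medians of 0.32 and 0.21. GCLC, which limits glutathione synthesis, rose from 22.9 to 75.1 FPKM with XY018 and from 58.3 to 147 FPKM with GSK805. SQSTM1, the autophagy adaptor p62, rose from 182 to 858 FPKM and from 207 to 364 FPKM, and FTL, the ferritin light chain, from 272 to 1160 FPKM and from 234 to 406 FPKM. TFRC, the transferrin receptor, stood at 38.6 and 41.0 FPKM in the XY018 pair and fell from 190 to 75.1 FPKM with GSK805. The metallothionein MT1X stood at 150 and 215 FPKM and fell from 546 to 171 FPKM with GSK805, a difference of 2.19 (counting interval 1.97 to 2.41). SQSTM1, FTL and TFRC were chosen after their values were seen.

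Glycolysis genes were lowered by GSK805 for 11 of 21, by XY018 for 4 and by both for the same 4. The shares over all genes were 11.7%, 14.5% and 5.01%. XY018 raised 2 of the 21, GSK805 raised 1, and 1 was called in opposite directions, against 13.5%, 11.8% and 1.46% of all genes. PKM, pyruvate kinase, had log2 ratios of -0.86 and -0.92. Hypoxia genes had medians of 0.19 with XY018 and -0.27 with GSK805 over 15 genes. Their XY018 vehicle stood below the GSK805 vehicle by a median of -1.35 on the log2 scale, against -0.53 for all genes. XY018 raised 6 and lowered 4, against 13.5% and 14.5% of all genes. GSK805 raised none and lowered 5, against 11.8% and 11.7%. CA9, a carbonic anhydrase of hypoxic cells, fell with both, from 5.58 to 1.51 FPKM and from 38.97 to 9.53 FPKM. Respiratory chain genes had medians of -0.23 and -0.41 over 38 genes, with 3 lowered by XY018 and 8 by GSK805, against 14.5% and 11.7% of all genes. None of 48 cytosolic ribosomal protein genes passed 1.5-fold with either compound (medians 0.18 and 0.24). Of 24 interferon-stimulated genes XY018 lowered 11 and raised 6, and GSK805 lowered 3 and raised 4, against shares over all genes of 14.5% and 13.5% for XY018 and 11.7% and 11.8% for GSK805. OAS3, an antiviral synthetase, fell from 10.5 to 3.12 FPKM with XY018 and stood at 5.23 and 6.83 FPKM in the GSK805 pair. Of 8 EGFR family genes and ligands GSK805 raised 4, against 11.8% of all genes, and XY018 raised 1 and lowered 1, near its shares over all genes. TGFA, an EGFR ligand, stood at 7.46 and 10.0 FPKM in the XY018 pair and rose from 10.4 to 36.4 FPKM with GSK805. Of 29 spliceosome genes both raised 1 and lowered 7, against 4.08% and 5.01% of all genes. Among those lowered was the splicing factor SRSF2, at log2 ratios of -1.30 and -1.20.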
